A study of Mus musculus with 4 samples.

Results

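The miRNAs of the Dlk1-Dio3 imprinted cluster were followed in the exosome fraction of 3T3-L1 cells during adipocyte differentiation. They were chosen by name from the mouse miRNA array, as every mouse miRNA whose number was 1 of 48 numbers of the cluster, with any letter or arm. This gave 103 members of the 1881 miRNAs on the array, of which 52 were 3p arms, 50 were 5p arms and 1, miR-496b, had no arm in its name. In the RefSeq tables of GRCm38.p6, 99 members had an entry, and the entries of all but miR-496b lay on chromosome 12. miR-496b was placed on chromosome 19 and was kept because the rule took it by its number. The same tables held 61 miRNA genes between Dlk1 and Dio3, of which 52 had a number in the rule.

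3T3-L1 is a mouse line of fibroblast-like preadipocytes that turn into fat cells under hormones. All cultures received serum depleted of exosomes. D0 was the medium of cells kept in growth medium for 3 days, before any inducer was given. For D4, D12 and D16 the cells were held for 2 days in medium with 1-methyl-3-isobutylxanthine, dexamethasone and insulin and then in medium with insulin alone until the day of collection. Vesicles were pelleted from the pooled medium of many dishes by ultracentrifugation, and 1 single-colour (Cy3) array was read for each day. The sample labels speak of 3 independent experiments and the methods of the study of 2 experiments mixed per day, so that each array is a pool and no day has a replicate array. Differences between days are therefore given without a p-value or a replicate check, and the errors given with signals are those of the array software within 1 array. A lower signal from fewer vesicles cannot be told apart from less of the miRNA in each vesicle, nor can the number of cells from the release per cell.

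The Dlk1-Dio3 domain is one of the best known imprinted regions of the mouse. Its protein-coding genes, among them Dlk1, are expressed from the paternal chromosome, and its long noncoding RNAs Meg3, Rian, Mirg and the antisense transcript of Rtl1 from the maternal chromosome, which also gives rise to the miRNAs. Dlk1 encodes Pref-1, the membrane protein that marks preadipocytes and restrains their differentiation. The miRNAs of the domain are most abundant in the embryo, the placenta and the brain.

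Of the 103 members, 8 were detected on at least 1 array. Their mature sequences in RefSeq (GRCm38.p6, chromosome 12, plus strand) are shown because all signal described for the cluster came from these molecules. The seed, bases 2 to 8 from the 5′ end, by which a miRNA recognises its targets, is in capitals. They are listed in their order from Dlk1 towards Dio3.
miR-1188-3p: uCCGAGGCuccccaccacacccugc
miR-370-3p: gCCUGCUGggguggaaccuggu
miR-329-3p: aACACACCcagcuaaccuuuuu
miR-494-3p: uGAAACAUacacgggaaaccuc
miR-667-3p: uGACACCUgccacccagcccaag
miR-654-3p: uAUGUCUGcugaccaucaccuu
miR-485-3p: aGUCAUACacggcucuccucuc
miR-3072-5p: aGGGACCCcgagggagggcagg

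The mature miRNAs lie at chr12:109611877-109611901 for miR-1188-3p, chr12:109618305-109618326 for miR-370-3p, chr12:109713541-109713562 for miR-329-3p and chr12:109715367-109715388 for miR-494-3p. They lie at chr12:109720061-109720083 for miR-667-3p, chr12:109723270-109723291 for miR-654-3p, chr12:109734946-109734967 for miR-485-3p and chr12:109747893-109747914 for miR-3072-5p. The 8 seeds all differ. Among the array miRNAs with an entry, only miR-329-3p shared its seed with another miRNA, miR-362-3p of the X chromosome, which was not detected on any day. Its sequence is shown to let the shared seed be seen next to the different 3′ part.
miR-362-3p: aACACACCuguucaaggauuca

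Signal was not read from most of the cluster. A miRNA was called detected by the software when at least 1 of its probes had a signal above 3 times its error. By this call the D0 array detected 6 members, the D4 array 8, the D12 array 7 and the D16 array 6. These counts were 5.83%, 7.77%, 6.80% and 5.83% of the members, where the whole array gave 17.5%, 22.6%, 21.6% and 20.2% in the same order of days. On any day 7.77% of the members and 24.8% of all miRNAs were detected, and on all 4 days 5 members (4.85%) and 283 of all miRNAs. The share of members was thus below that of the whole array on every day, and 95 members were detected on none. With 1 array per day this is a description of these arrays and was not tested.

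The detected members were also counted in groups named after the host transcripts. The groups are lists of miRNA numbers, and the Mirg group takes every number not in the other lists. Since 7.77% of all members were detected on any day, few would be looked for in a small group, and evenness was not tested. None of the 21 members of the Rtl1 antisense group, which lies around Rtl1 on the Dlk1 side of the domain, was detected on any day. From the same region miR-432, which is outside the rule, was called at D4. The Rian group held 6 members, and the same 2 of them, miR-1188-3p and miR-370-3p, were detected on every day. Of the 76 members counted in the Mirg group, miR-496b included by its number, 4, 6, 5 and 4 were detected from D0 to D16. Only 3 of these, miR-494-3p, miR-485-3p and miR-667-3p, were detected on all 4 days. By arm, 7 of 52 members that are 3p arms were detected on any day (13.5%), and 1 of 50 that are 5p arms (2.00%). Over the array 29.2% of 3p arms and 20.6% of 5p arms were detected. Only the gene of the 1 detected 5p arm could have had both arms detected, and it did not. The share of such genes over the array was not counted, so that this is no result about arms.

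**Figure D1:**
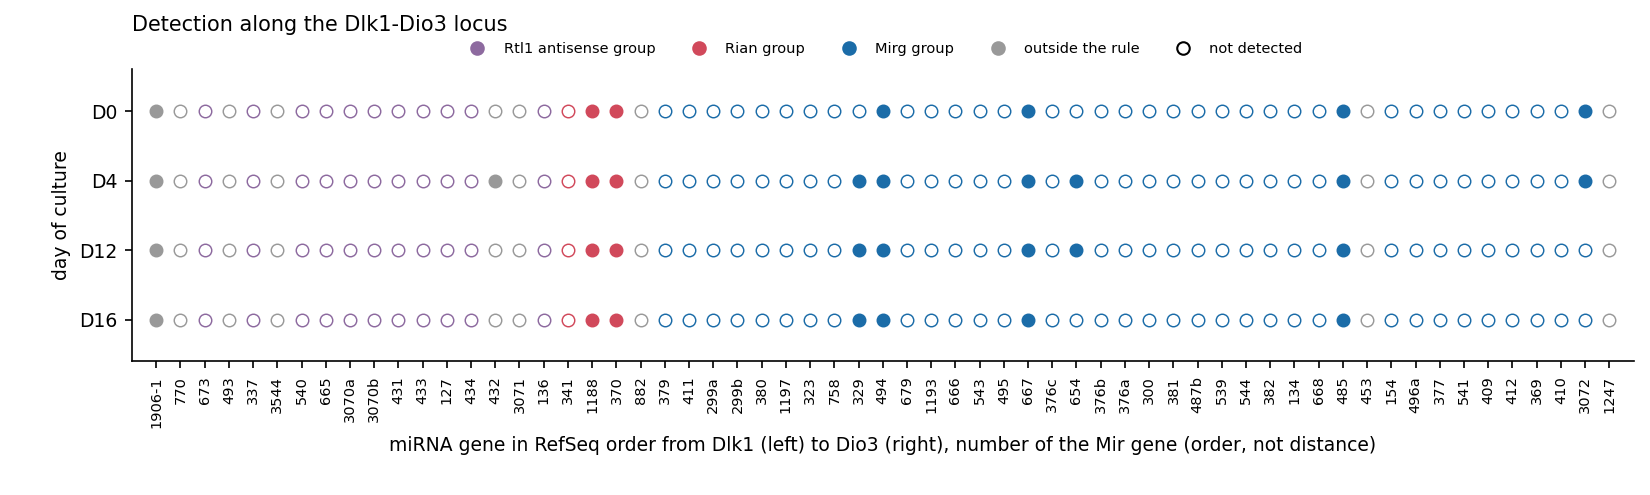
Detection of miRNAs along the Dlk1-Dio3 locus. Each column is 1 of the 61 miRNA genes in RefSeq order from Dlk1 to Dio3 (order, not distance), each row is a day, and a filled circle marks a gene with at least 1 miRNA detected on that array. Colour gives the group, and grey marks genes outside the rule. The Rtl1 antisense group is open on all 4 rows, the 2 filled genes of the Rian group are neighbours, and so are Mir329 and Mir494 among the 6 of the Mirg group. The other filled genes of the Mirg group have no filled neighbour, and nearness was not tested.

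Among the detected members miR-494-3p was the brightest. It is a miRNA of the Mirg group that has been described as lowering Ppargc1a, a coactivator of mitochondrial biogenesis, in beige fat cells. Its total gene signal, the sum over its 2 probes, was 222 ± 17.7 for D0, 576 ± 45.3 for D4, 200.2 ± 15.9 for D12 and 147 ± 11.6 for D16, in the arbitrary units of the scanner. The D4 signal was the highest of the 4, on arrays that were not scaled to each other. In order of signal among the detected miRNAs of each array it was number 9 on the D0 array, 8 on the D4 array, 20 on the D12 array and 19 on the D16 array, which detected between 329 and 426 miRNAs each. Signals of different miRNAs come from different probes, so these places describe brightness and not amounts of RNA.

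miR-1188-3p of the Rian group was next in brightness, which read 45.3 ± 3.56 at D0 and 111 ± 8.23 at D4, then 95.8 ± 7.15 at D12 and 62.0 ± 4.66 at D16. It was highest at D4 and lowest at D0. The values of D4 and D12 differed by about the sum of their errors.

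miR-370-3p, the other detected member of the Rian group, has been described as acting on Cpt1a, the enzyme that lets fatty acids into mitochondria, in liver cells. Its signals were 7.22 ± 1.28, 17.8 ± 2.10, 24.9 ± 2.35 and 22.1 ± 2.00 at D0, D4, D12 and D16. Unlike miR-494-3p and miR-1188-3p it read higher at D12 and D16 than at D4, and its D12 and D16 values lay within their summed errors. Which of these 2 days was higher depended on the spot size by which the software multiplies, 0.760 at D12 and 0.6 at D16. The mean spot signal, taken before that step, was 46.4 at D12 and 52.0 at D16.

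miR-485-3p, from the part of the Mirg group nearer to Dio3, was read by 4 probes. Its signals were 11.5 ± 1.01, 30.8 ± 1.96, 24.0 ± 1.64 and 20.0 ± 1.34 in the order of days. All 4 probes passed on every day, and each of the later days was above D0.

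miR-667-3p lay near the detection limit throughout, with 1.61 ± 0.415, 2.13 ± 0.594, 4.27 ± 0.835 and 2.98 ± 0.657 on the same days. It has 4 probes, and its total signal is the sum of only those that passed. At D0 and D4 only 1 probe passed, and at D12 and D16 a second one did. The probe that passed on all 4 days read 1.61, 2.13, 2.32 and 1.45, so that the higher total at D12 lay mostly in the second probe. That probe had read 1.15 at D0 and 1.56 at D4, below its limit.

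Of the remaining 3 members each was missing on at least 1 array, and their values are given although they lie below the median detected signal of each day. For a day without detection the limit is 3 times the error summed over the probes. miR-329-3p, a miRNA that belongs to the activity-regulated set of neurons, read 5.77 ± 1.33 at D4, 4.64 ± 1.19 at D12 and 3.15 ± 0.930 at D16. At D0 its limit was 5.05. Without scaling, its D4 signal was at least 1.14-fold higher, while the D12 and D16 signals lay below that limit and give no fold. The unscaled D4/D0 ratios of its 2 probes, called or not, were 2.90 and 2.31. They lay on either side of 2.47, the median ratio of all miRNAs detected on both days. Whether miR-329-3p differed between these days beyond the brightness of the arrays was not tested. Its better probe at D0 stood at 2.90 times its error, just short of a call.

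miR-654-3p was called at D4, with 4.08 ± 0.892, and at D12, with 1.74 ± 0.544. Its limits of 5.01 at D0 and 5.39 at D16 were above both signals, so no fold can be given. The sum over all 4 of its probes, called or not, was 2.71, 7.20, 5.85 and 3.98 from D0 to D16. The difference between D4 and D12 was smaller in this sum than in the called signal, which held 2 probes at D4 and 1 at D12.

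miR-3072-5p, the member nearest to Dio3 that was detected and the only 5p arm, was called at D0, with 4.84 ± 0.959, and at D4, with 9.04 ± 1.80. It was not called at D12, with a limit of 6.72, or at D16, with a limit of 5.39. Without scaling, its D4 signal was at least 1.34-fold higher than at D12 and at least 1.68-fold higher than at D16. Its D0 signal lay under both limits. The sum over both its probes was 6.99, 9.04, 3.84 and 3.49 from D0 to D16. On this sum both early days were above both late days.

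**Figure D2:**
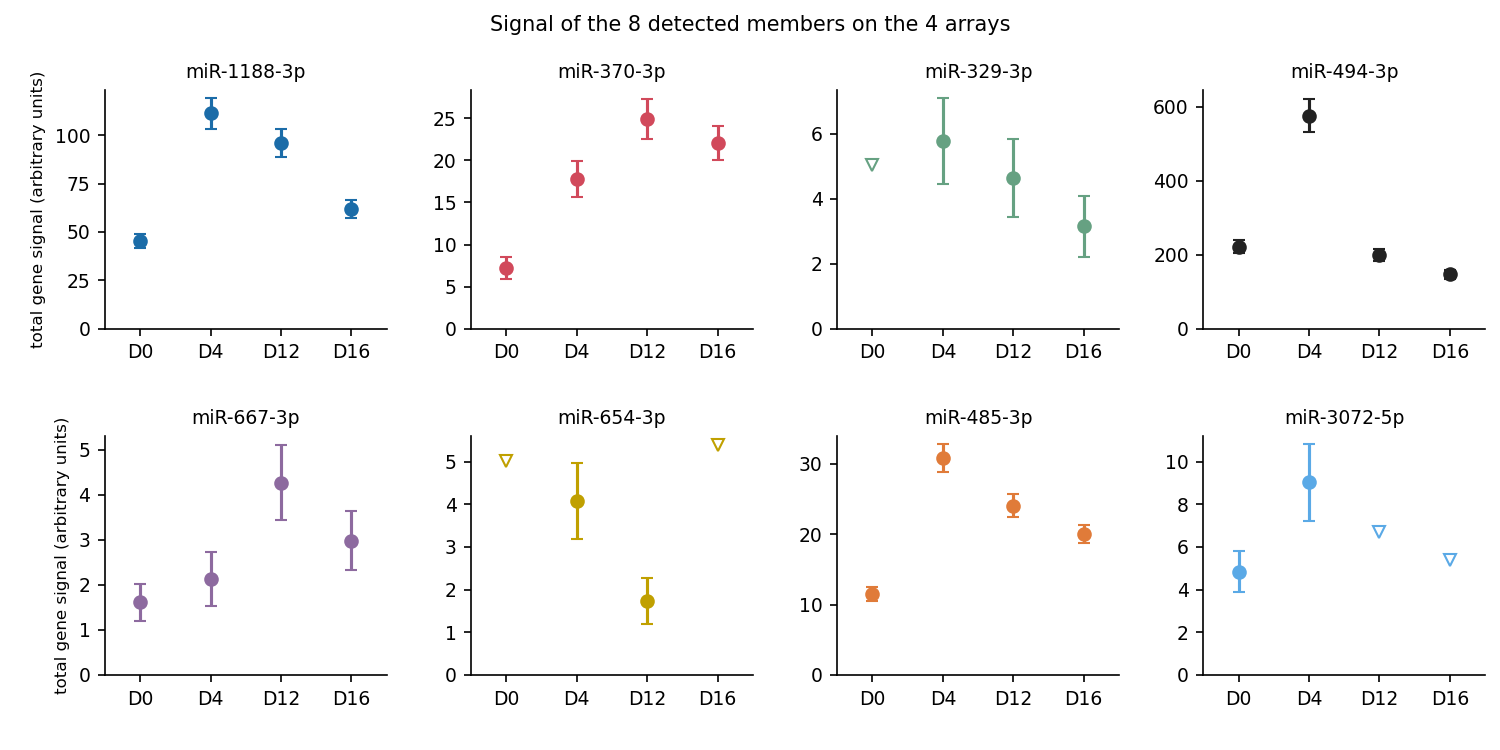
Total gene signal (arbitrary units, linear axes from 0, a scale of its own for each panel) of the 8 detected members on the D0, D4, D12 and D16 arrays, unscaled. Points are single arrays, bars are the technical error of the software, and open triangles are limits on days without detection. miR-494-3p peaks at D4 with 576, whereas miR-370-3p is higher at D12 and D16, with 24.9 and 22.1, than at D4, with 17.8.

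The members together carried 2.30% ± 0.142 (technical error) of the signal of all detected miRNAs on the D0 array. At D4 this share was 1.93% ± 0.118, and at D12 and D16 it was 1.15% ± 0.0573 and 1.18% ± 0.0586. The share of the cluster was thus lower on the late days than on the early ones. Most of the member signal was miR-494-3p, with 75.9%, 76.1%, 56.3% and 57.1% in the order of days. Without it, the other detected members carried 0.554%, 0.462%, 0.502% and 0.504% on the same days, out of the signal of all detected miRNAs. A share does not depend on a scaling factor for the whole array, but it does depend on the signals of the other miRNAs.

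The array as a whole differed in brightness between days, and this has to be read beside each ratio. The median ratio of all miRNAs detected on both days was 2.47 for D4/D0, 1.91 for D12/D0, 1.32 for D16/D0 and 0.865 for D12/D4, without scaling. The 4 spike-in RNAs gave 1.82, 1.72 and 1.27 for the ratios to D0. The D0 array was also uneven, with a left side whose median signal per probe was 0.689 of the right side, against 1.02, 1.01 and 0.997 on the later arrays in order. The unevenness reached the members, whose left-to-right ratio at D0 was 0.608 for miR-494-3p, 0.725 for miR-1188-3p, 0.579 for miR-370-3p and 0.664 for miR-485-3p. No spot was saturated.

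From D0 to D4 most members lay close to the median of the array. Of 6 members detected on both days, 4 had a ratio above 2 and 0 a ratio below 0.5, where 62.1% and 0.315% of all 317 miRNAs did. The ratios were 2.46 ± 0.265 for miR-1188-3p, 2.46 ± 0.523 for miR-370-3p, 2.68 ± 0.292 for miR-485-3p and 2.60 ± 0.291 for miR-494-3p. Relative to the median of all miRNAs these 4 lay between -0.01 and 0.12 on the log2 scale. miR-3072-5p had a ratio of 1.87 ± 0.525, which was 1.09 on the probe called on both days, and miR-667-3p one of 1.32 ± 0.502. The median over the 6 members was 2.46 and that of all miRNAs 2.47. With scaling to the 75th or 90th percentile of the detected miRNAs the ratios of miR-1188-3p, miR-370-3p, miR-485-3p and miR-494-3p were all below 1. With the 75th percentile of all spots they were above 1. The direction of these 4 members at D4 against D0 thus turns with the scaling. The ratios in the next paragraphs are also unscaled, and are given beside those of the other miRNAs.

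At D12 the members lay further apart. Of 5 members detected at D0 and D12, 4 had a D12/D0 ratio above 2 and 0 a ratio below 0.5, beside 47.8% and 3.37% of all miRNAs detected on both. miR-1188-3p, with 2.12 ± 0.229, and miR-485-3p, with 2.09 ± 0.233, were again close to the median of all. miR-370-3p had a ratio of 3.45 ± 0.690 and lay at percentile 75.9 of all ratios, counted from the lowest. miR-494-3p had a ratio of 0.904 ± 0.102 and lay at percentile 12.3. Relative to the median of all miRNAs these 2 members stood at 0.85 and -1.08 on the log2 scale. miR-667-3p had a ratio of 2.65 ± 0.858, or 1.44 on the probe called on both days.

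At D16 miR-370-3p was again the highest and miR-494-3p the lowest of the members. Of 5 members, 1 had a D16/D0 ratio above 2 and 0 a ratio below 0.5, beside 31.1% and 9.34% of all 289 miRNAs. The member above 2 was miR-370-3p, with 3.05 ± 0.606 and percentile 83.2. miR-485-3p had a ratio of 1.74 ± 0.193 and miR-1188-3p one of 1.37 ± 0.149. miR-494-3p had 0.663 ± 0.0746 and percentile 14.7. miR-667-3p had a ratio of 1.85 ± 0.628, or 0.902 on the shared probe. All 3 comparisons use the D0 array, so that they are not independent of each other.

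**Figure D3:**
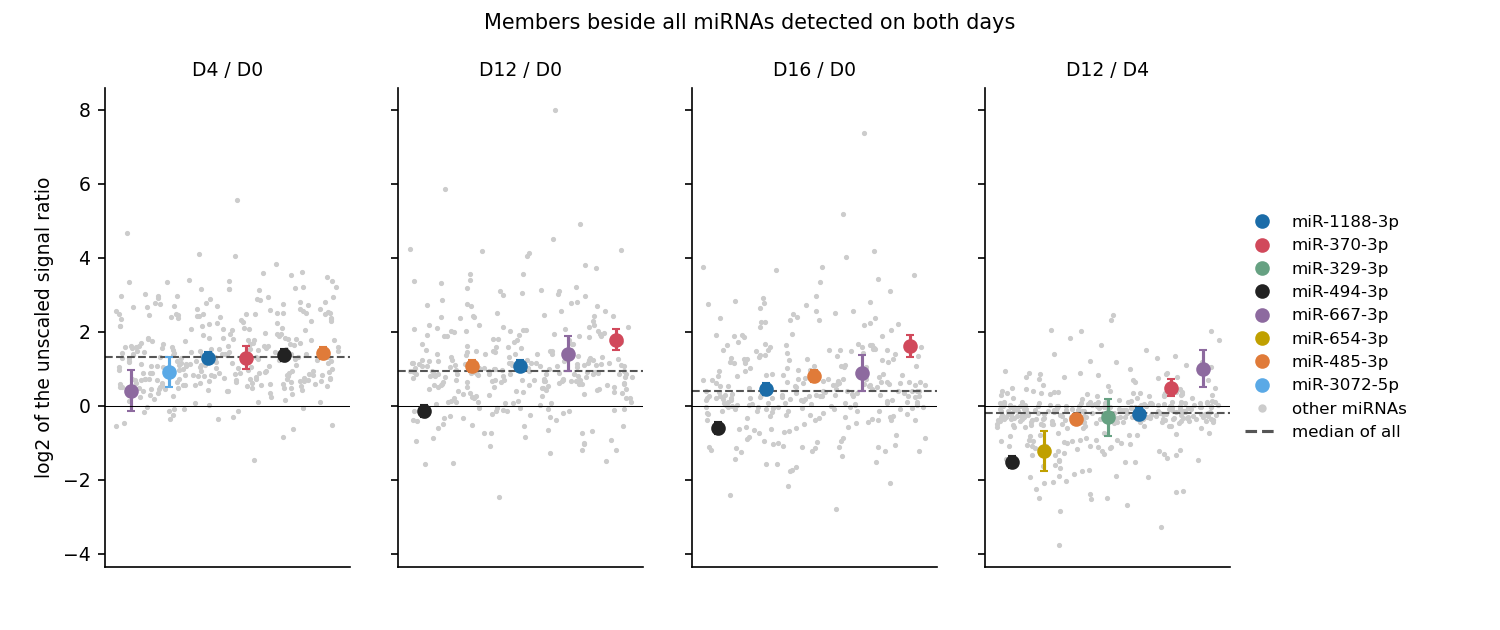
Log2 of the unscaled signal ratio for D4/D0, D12/D0, D16/D0 and D12/D4. Coloured points are members with the technical error of the ratio, spread sideways for legibility, grey points the other miRNAs detected on both days, and the dashed line the median of all. At D4/D0 4 of the 6 members lie near the dashed line and miR-667-3p and miR-3072-5p below it, and in the other 3 panels miR-494-3p lies below it and miR-370-3p above it.

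D12 was also compared with D4, without the uneven D0 array, a choice made after the unevenness was seen. Of 7 members detected on both, 1 had a D12/D4 ratio above 2 and 2 a ratio below 0.5, beside 4.81% and 15% of all 374 miRNAs. miR-494-3p had a ratio of 0.347 ± 0.0388 and lay at percentile 6.55, while miR-370-3p, with 1.40 ± 0.212, lay at percentile 90.2. miR-1188-3p had 0.861 ± 0.0905, miR-329-3p 0.804 ± 0.277 and miR-485-3p 0.779 ± 0.0725, all near the median of all. The ratio above 2 was that of miR-667-3p, with 2.00 ± 0.683, and the second below 0.5 that of miR-654-3p, with 0.426 ± 0.163. On the probes called on both days these became 1.09 and 0.859, so that both rest on which probes were called.

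In the D12/D0, D16/D0 and D12/D4 ratios miR-494-3p lay below and miR-370-3p above the array median in all 11 alternatives of scaling, background, probes and spots. Of these, 6 multiply a whole array by 1 factor and cannot change a place relative to the median. Among the other 5, keeping probes detected on both days left the ratios of miR-494-3p and miR-370-3p unchanged, since all their probes passed. Mean spot signals gave them almost the same ratios as the spot size divided out. In these settings it was mainly the median of all that differed. Quantile normalization, normexp and the left side left out thus bear on these members themselves. For D12/D4 miR-494-3p lay between -1.33 and -1.21 and miR-370-3p between 0.25 and 0.71 relative to the median of all on the log2 scale. For D12/D0 the ranges were -1.12 to -0.55 for miR-494-3p and 0.31 to 0.92 for miR-370-3p. For D16/D0 they were -1.04 to -0.59 and 0.43 to 1.27. No threshold of significance belongs to these values, since no second array of any day was read.

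The 2 probes of miR-494-3p, with 15 spots each, had the same order of days in their median spot signals. The brighter probe read a median of 712, 1557, 557 and 516 per spot from D0 to D16 after background subtraction. At D0 its spots ranged from 435 to 1008, at D4 from 1473 to 1649, at D12 from 515 to 589 and at D16 from 471 to 563. The other probe had medians of 329, 545, 188 and 177. Spots of 1 array are repeats of 1 pool, and these values carry the brightness of each array. Between D0 and D12 the spots of the brighter probe did overlap, and the D0 spots that did so lay in the dim left side of that array.

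**Figure D4:**
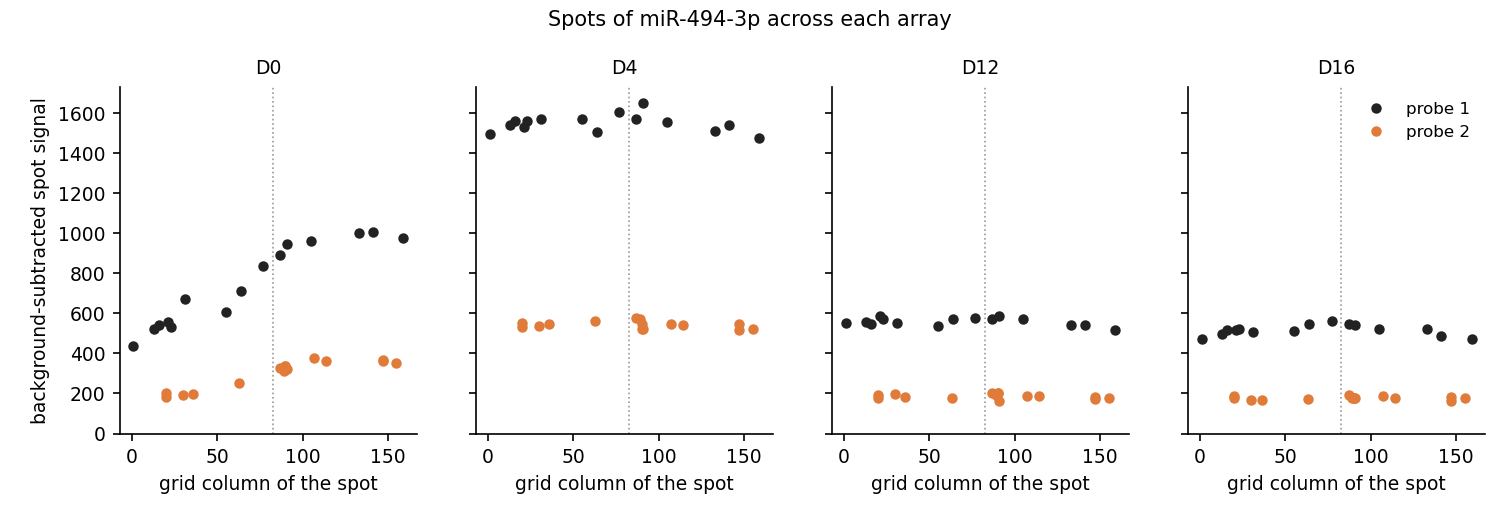
Background-subtracted signal of each spot of miR-494-3p (arbitrary units) against the grid column of the spot, for the 2 probes on the 4 arrays. The dotted line divides the left and right sides. At D0 the spots climb from left to right, from 435 to 1008 for the brighter probe, and on the other arrays they are level.

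Members without a call were also low as measured. The counts here are for each day and include members called on other days. The limits of the members not detected on a day were 4.91 to 5.05 on the D0 array, 7.11 to 7.38 on the D4 array, 6.58 to 6.81 on the D12 array and 5.24 to 5.40 on the D16 array. Members whose best probe stood at 2 to 3 times its error numbered 3, 2, 3 and 6 in the order of days. They made up 3.09%, 2.11%, 3.13% and 6.19% of the undetected members, against 7.09%, 7.08%, 7.19% and 7.73% of all undetected miRNAs. The median did not share this order. The best probe of undetected members had a median of 0.10, 0.23, 0.29 and 0.35 times its error from D0 to D16. Over all undetected miRNAs it was 0.18, 0.18, 0.17 and 0.26, so that by the median members were lower only at D0. The member closest to a call without ever having one was miR-134-3p, with 2.15, 2.94, 2.77 and 2.36 times the error from D0 to D16. Its partner arm miR-134-5p, which acts on Limk1 in dendritic spines, had 1.44, 1.80, -0.38 and 0.48.

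Other well known members are named for their roles, with their values in view. miR-127-3p, the maternal miRNA that pairs perfectly with the Rtl1 transcript, had a best probe of 0.02, -0.20, 0.43 and 0.06 times its error at D0, D4, D12 and D16. miR-379-5p, at the start of the Mirg group, had -0.43, -0.17, 0.38 and 0.63. miR-410-3p, near its end, had 0.21, 0.52, 1.26 and 1.19. The best probe of these 3 reached at most 1.26 times its error, where a signal cannot be told from background on these arrays. miR-376a-3p stood higher at D4, with 2.41, than at D0, D12 and D16, with -0.12, 0.98 and 0.72.

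**Figure D5:**
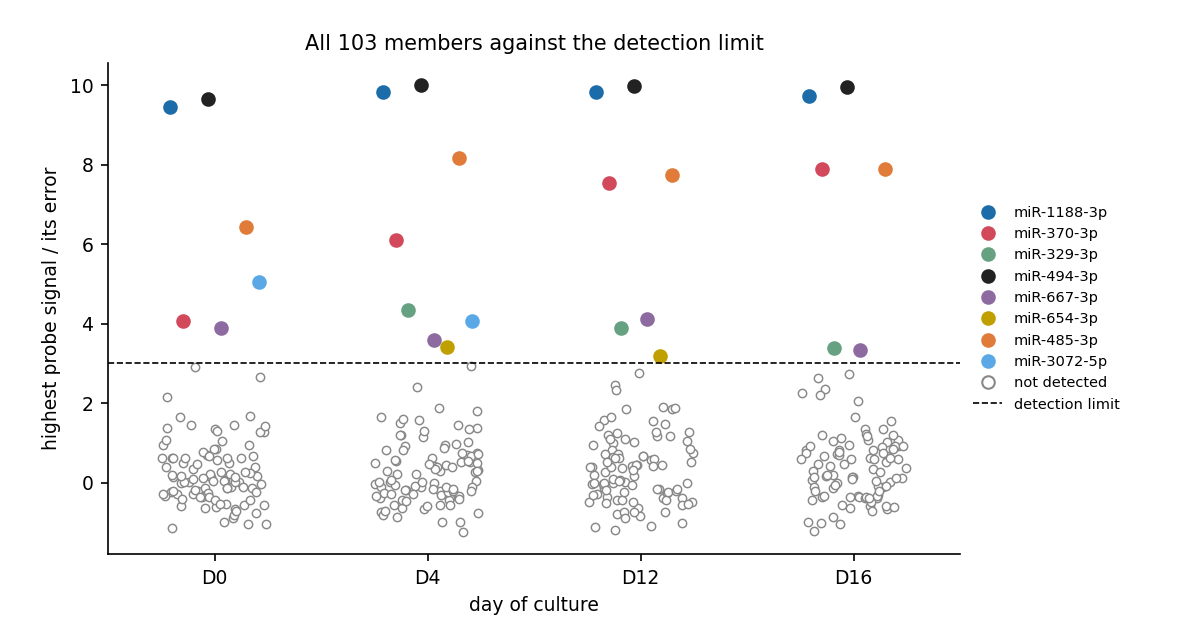
Highest probe signal divided by its error for all 103 members on the 4 arrays. Filled points are detected members in colour, open points are members not detected, spread sideways, and the dashed line is the limit of 3. Most members lie near 0 on each array, and miR-494-3p and miR-1188-3p lie above 9 on all 4.

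The detected members had a higher median GC content than the others. The GC content was 72% for miR-1188-3p, 68.2% for miR-370-3p, 65.2% for miR-667-3p, 77.3% for miR-3072-5p and 54.5% for miR-485-3p. miR-494-3p and miR-654-3p had 45.5% each and miR-329-3p 40.9%. The median was 59.9% over the 8 detected members and 50% over the 91 others with an entry, while over the array it was 55% and 50%. Of 17 members above 60% GC 4 were detected (23.5%), of 54 from 45% to 60% 3 (5.56%), and of 28 below 45% 1 (3.57%). The whole array gave 34.3%, 21.6% and 18.1% in these classes, so that the members were below the array in each. Whether GC content plays a part in the detection of members was not tested.

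Some seeds were shared within the cluster. There were 8 pairs of members with the same seed, for example miR-379-3p with miR-411-3p and miR-410-5p with miR-494-5p. None of these 16 members was detected, where 7.77% of all members were on any day. With so low a share this is no result about shared seeds. The members without an entry in the table were miR-376c-3p, miR-485-5p, miR-487b-3p and miR-539-3p.

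Beyond the rule, 14 array miRNAs came from other miRNA genes of the locus, and 2 of them were detected. miR-1906, which the table assigns to a pair of genes and not to this locus alone, read 13.8 ± 1.53, 10.7 ± 1.85, 10.4 ± 1.72 and 6.06 ± 1.31 from D0 to D16. Its unscaled ratios to D0 were 0.773, 0.750 and 0.437, against array medians above 1. The study lists lower ratios to D0 for miR-1906 on each of these days, among its downregulated miRNAs. miR-432, from the Rtl1 antisense region, was called only at D4, with 10.9 ± 1.51. Its limits on the other days were 4.97 at D0, 6.61 at D12 and 5.26 at D16, all below the D4 signal.

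Another imprinted source of miRNAs, the intron of Sfmbt2, gave a different picture on the same arrays. Of its 61 miRNAs (families miR-297, miR-466, miR-467 and miR-669), 38, 42, 40 and 40 were detected from D0 to D16, that is 62.3% to 68.9%. Of 10 miRNAs from other imprinted host genes (miR-335, miR-483, miR-675, miR-296 and miR-298), 3 were detected at D0 and 4 on each later day. Many Sfmbt2 miRNAs are near-identical in sequence, so that their probes may share signal. No test was made between these sets and the cluster.

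The labelled cell type was checked by marker miRNAs. Of 9 miRNAs linked to fat cell differentiation 5 were detected at D0, 8 at D4 and 9 at D12 and D16, with a summed signal of 16.8, 267, 331 and 245. Of 6 fibroblast and mesenchymal miRNAs 5 or 6 were detected on each day. None of 6 brain, 3 muscle or 5 embryonic stem cell miRNAs was detected on any day. The 3 red blood cell miRNAs summed to 9.40, 468, 2524 and 1649, so that they were highest on the days when the share of the cluster was lowest, and their part in that share was not tested. Of 3 leukocyte and endothelial miRNAs 2 were detected from D4 on, summing to 30.2, 124 and 108, and the liver miRNA miR-122-5p at D12 and D16.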

How the data were processed

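RNA of the exosome fraction was measured on 4 single-colour miRNA arrays, 1 a day (D0, D4, D12, D16), and samples were grouped by the day in the labels. The authors deposited the intensity output of Feature Extraction 11.0.1.1 (11.0 in the submitters' processing notes), with background subtracted from each spot and no scaling between arrays. The amount subtracted (median 49.7 to 56.4) followed the background surface fitted by the software (mean 50.5 to 57.1) and not the local background (35 to 36). Each miRNA had 30 spots on 1 to 4 probes. Its total signal is the sum over probes above 3 times their error, multiplied by an effective spot size (0.780 at D4 and 0.760 at D12 by estimate, and the default of 0.6 on the other arrays). Undetected miRNAs are listed at 0.1. The median coefficient of variation between spots was 21.1% at D0 and 7.19% to 8.07% on the other arrays. The number of arrays limits the precision, and no test between days was made.

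Ratios were taken unscaled over miRNAs detected on both days, with the threshold of 2 and 0.5 that the methods of the study use. The study further required a signal above the median of a day, and its printed ratios for miR-1906 differ from those given here. The ratios and counts here are therefore not to be set beside its own. The work was done in Python 3.11.15 with numpy 2.4.6, pandas 2.3.3 and scipy 1.17.1. The technical error of a ratio combines the errors of both signals. Figures were drawn with matplotlib 3.10.9. Sequences and gene order came from RefSeq tables of GRCm38.p6, in which 1608 array miRNAs were found by name. The array header names an older assembly and none of its positions were used. All members detected on at least 1 array were named. Full values were planned for those detected on all arrays or brighter than the median detected signal of a day, and those of the other 3 were added after they were seen. The members and lists were chosen with earlier results of these data known. Steps were checked on simulated data. The alternatives were scaling by the 75th percentile (of detected miRNAs or of all spots), 90th percentile, median, quantiles or spike-in RNAs, mean spot signals, the spot size divided out, normexp with an offset of 50 on median spot signals (limma 3.58.1, R 4.3.3), only probes detected on both days, the left side of each array left out, and other thresholds, filters and rules of detection. The D12/D4 comparison and its alternatives were added after seeing the data.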

Additional observations from a re-analysis of the deposited data

How the results depend on the processing

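Counts past a threshold depended on the processing. No paired analysis was possible because each day has 1 array. Without a replicate array the depth of the arrays limits every value below 3 times its error, and differences between days cannot be separated from differences between arrays. The median log2 ratio of all miRNAs was 1.30, 0.94 and 0.40 for D4/D0, D12/D0 and D16/D0 without scaling, -0.79, -0.78 and -0.78 with the 75th percentile of detected miRNAs, and 0.44, 0.15 and 0.05 with the spike-in RNAs.

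For D4/D0, 4 members were above 2. This became 0 with the 75th percentile of either kind, the 90th percentile, the median, quantiles, spike-in RNAs, normexp, the left side left out or a threshold of 3-fold. It became 2 with the spot size divided out, mean spot signals or a margin of 2 technical errors. Below 0.5 there were 0 members, and 2 with the 75th percentile of detected miRNAs and 1 with the 90th percentile or quantiles. For D12/D0, the 4 members above 2 became 0 with the 75th percentile of detected miRNAs, the 90th percentile, the median, quantiles or normexp. They became 1 with the 75th percentile of all spots, spike-in RNAs, mean spot signals, the left side left out, 3-fold or 2 technical errors, and 2 with the spot size divided out. Below 0.5 there was 1 member with the 75th or 90th percentile of detected miRNAs or the median. For D16/D0, the 1 member above 2 became 0 with the 75th or 90th percentile of detected miRNAs, quantiles or normexp, and 3 members were above 1.5-fold. Below the threshold there was 1 member with the 75th or 90th percentile of detected miRNAs, the median or 1.5-fold. For D12/D4, the 1 member above 2 became 0 with mean spot signals, normexp, the left side left out, probes detected on both days, only brighter miRNAs, 3-fold or 2 technical errors. The 2 members below 0.5 became 1 under these settings other than 3-fold, which left 0, and under the 75th or 90th percentile of detected miRNAs, the median and quantiles.

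The difference between the median of members and that of all miRNAs, on the log2 scale, was 0.15 for D12/D0 and became -0.12 with quantiles. For D16/D0 it was 0.40 and became -0.16 with quantiles, 0.20 with normexp, 0.10 with mean spot signals, 0.10 with the left side left out, 0.10 with probes detected on both days and 0.0654 with only brighter miRNAs. The share of the cluster in the detected signal became 2.10% with normexp and 1.91% with quantiles at D0, and 1.38% at D12 and 1.33% at D16 with normexp. When a probe had to have 50% or more of its spots flagged as well above background, 4 members were detected on every day, beside 12.5%, 17.3%, 16.4% and 15.5% of all miRNAs from D0 to D16, so that the differences between days in the number of detected members were not present under this rule.

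Single ratios to D0 turned below 1 with some scalings. With the 75th percentile of detected miRNAs D4/D0 was 0.577 for miR-1188-3p, 0.577 for miR-370-3p, 0.630 for miR-485-3p and 0.611 for miR-494-3p, with the 90th percentile 0.831, 0.832, 0.907 and 0.880. With the median it was 0.965 for miR-1188-3p and 0.966 for miR-370-3p, and with quantiles 0.669 and 0.859, while miR-485-3p stood at 1.00. D12/D0 became 0.643 with the 75th percentile, 0.912 with the 90th and 0.746 with quantiles for miR-1188-3p, and 0.636, 0.901 and 0.938 for miR-485-3p. For miR-667-3p it became 0.806 with the 75th percentile and 0.562 with quantiles. These turns follow from the shift of all miRNAs for the percentiles and the median, and for quantiles the cause was not tested. Over all alternatives 126 of the counts, shares and differences of medians stayed within the limits set for a change and 70 moved. Of the single ratios 79 stayed, 153 moved and 21 turned.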
